A study of Homo sapiens with 3 samples.

Results

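Small nucleolar RNA host genes were described in 3 single-cell RNA libraries of hypopharyngeal carcinoma cells. They were taken as every gene whose symbol is SNHG followed by digits, 24 genes, together with GAS5, ZFAS1, EPB41L4A-AS1, LRRC75A-AS1, DANCR and MIR17HG, which gave 30 of the 58735 genes in the files. The rule used symbols and no measured value. The cells were FaDu, an established human line from a squamous tumour of the hypopharynx, and a FaDu subline that resists TPF, the chemotherapy made of paclitaxel, cisplatin and 5-fluorouracil. The first library came from FaDu cells given cinobufotalin, a bufadienolide steroid (FaDu cinobufotalin). The second came from the resistant line given TPF (resistant TPF), and the third from the resistant line given TPF and cinobufotalin together (resistant TPF cinobufotalin). Neither line was analysed here without drug, and resistance is represented by 1 subline. Each group was 1 library, so nothing was tested between groups. Drug, line and library cannot be told apart across the FaDu comparisons, and drug and library cannot be told apart between the resistant libraries.

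A small nucleolar RNA host gene carries, usually in its introns, the small nucleolar RNAs that guide the chemical modification of ribosomal RNA. When the primary transcript is spliced, the intron is trimmed to the small RNA, which stays in the nucleolus, while the spliced exons leave as a long RNA that often codes for no protein. Many of these spliced RNAs begin with a 5′ terminal oligopyrimidine (TOP) tract, the start that ribosomal protein messengers share, and several are degraded by nonsense-mediated decay when ribosomes translate their short reading frames. GAS5, named for its accumulation in growth-arrested cells, is the textbook case of both.

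The contrast in UMI counts between the small RNAs and their hosts can be read from ZFAS1. Its introns hold 3 box C/D small nucleolar RNAs of the SNORD12 family. They are shown because the host gene had many UMIs in these libraries and the small RNAs almost none: SNORD12B had 0.00742 CPM in resistant TPF cinobufotalin and the other values of the 3 were 0. These counts do not show that the small RNAs were absent from the cells, since capture of RNAs of 89 to 91 bases was not tested. Capitals mark the C box (TGATGA) and the D box (CTGA), the short motifs that bind the core proteins of this class. The sequences are GENCODE 29 transcripts on GRCh38, written 5′ to 3′ as DNA, all from the plus strand of chromosome 20.
SNORD12C (chr20:49278940-49279028): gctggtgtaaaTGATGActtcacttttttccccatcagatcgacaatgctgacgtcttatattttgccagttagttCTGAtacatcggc
SNORD12B (chr20:49280319-49280409): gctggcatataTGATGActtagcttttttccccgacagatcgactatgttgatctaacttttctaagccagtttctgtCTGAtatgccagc
SNORD12 (chr20:49280683-49280772): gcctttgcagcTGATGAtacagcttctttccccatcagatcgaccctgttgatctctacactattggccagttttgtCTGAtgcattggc
The C box began at base 12 in all 3, and the D box at bases 77, 79 and 78. Of the 943 small nucleolar RNA genes in the files, 842 had no UMI in any library and none reached a mean of 10 CPM (UMIs scaled to the same library total), the highest being 2.96 CPM. Such counts do not measure how much of the small RNAs the cells held.

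The starts of the host RNAs are shown next, since the TOP tract is what they have in common with ribosomal protein genes. Capitals mark the tract, searched on the transcript strand as a C at the first base followed by at least 4 further C or T bases, in any transcript of the gene. The 30 bases shown open a GENCODE 29 transcript on GRCh38, except that the first exon of the LRRC75A-AS1 transcript ends after 24.
GAS5 (chr1:173867960-173867989, minus strand): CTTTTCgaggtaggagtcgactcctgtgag
ZFAS1 (chr20:49278642-49278671, plus strand): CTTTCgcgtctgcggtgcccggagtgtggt
SNHG1 (chr11:62855450-62855479, minus strand): CTCCTgtctgcaggatttacgcgcacgttg
SNHG5 (chr6:85678704-85678733, minus strand): CTTTTacgtcggccttcgcgagcgtctggg
SNHG8 (chr4:118278758-118278787, plus strand): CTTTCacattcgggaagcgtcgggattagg
SNHG12 (chr1:28581844-28581873, minus strand): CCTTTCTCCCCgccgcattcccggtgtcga
SNHG16 (chr17:76557769-76557798, plus strand): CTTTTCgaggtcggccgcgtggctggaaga
LRRC75A-AS1 (chr17:16439037-16439060, plus strand): CTTTTCattcccgttgttatggag
Such a start was annotated for 12 of the 20 host genes at a mean of 10 CPM or more. The share was 18.6% of all 8143 genes at that level, 82.5% of the 80 cytosolic ribosomal protein genes and 13.8% of 260 other long noncoding genes (annotated as lincRNA, antisense or processed transcript). Per transcript the share was 15.6% of the 212 that the 20 host genes list, against 2.68% for all genes at that level and 20.4% for ribosomal protein genes. Some of the 12 host genes counted through 1 transcript alone: SNHG1 (1 of 25), SNHG11 (1 of 15), SNHG8 (1 of 5) and SNHG3 (1 of 3). The SNHG1 transcript shown opens at base 62855479, inside the gene, which reaches 62855914 on its 5′ side. No transcript start of SNHG7, SNHG15, DANCR, SNHG17, SNHG9, SNHG10, SNHG26 or EPB41L4A-AS1 had the letters searched. An annotated start is not a measured one, since reads of the 3′ end do not show where these RNAs began.

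A barcode counted as a cell with 1000 UMIs and 500 genes or more and no more than 20% of UMIs from mitochondrial genes. This left 6123, 4862 and 7525 cells in the order above, with a median depth of 24440, 27920.5 and 17867 UMIs. A UMI (unique molecular identifier) marks 1 RNA molecule at its 3′ end, so levels are given as CPM, the UMIs of a gene scaled to the same library total, and are not divided by length. At least 5 CPM was found for all 11 squamous epithelial markers, and for none of 7 fibroblast, 8 immune and 5 endothelial markers. Of 4 erythroid markers HBA1 passed that level, and the list summed to 5.79, 12.2 and 9.57 CPM; its part in the results was not tested. Library pairs shared 9 to 13 barcodes among kept cells. The resistant libraries differed from FaDu cinobufotalin in MALAT1 and in ribosomal protein genes: MALAT1, a nuclear long noncoding RNA, stood at 2710, 9798 and 8661 CPM and cytosolic ribosomal protein genes at a median of 18.7%, 13.7% and 14.1% of a cell's UMIs. The part of these differences in the host gene ratios was not tested beyond the matched sets of cells given below.

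Averaged over the libraries, 20 of the 30 host genes had 10 CPM or more, 3 lay between 5 and 10, 2 between 1 and 5, and 5 under 1. SNHG18 and SNHG28 had no UMI in any library, where a count of 0 allows up to 0.0181, 0.0222 and 0.0223 CPM, and SNHG27 had 1 UMI in all. SNHG14, the very long host on chromosome 15 that overlaps UBE3A, had 28, 58 and 132 UMIs, and SNHG22 had 30, 21 and 36. Together the host genes made up 0.338%, 0.373% and 0.394% of all UMIs in the library order above, and the 4 with the highest levels held 67.8%, 64.6% and 63.2% of that.

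SNHG7, which lies on chromosome 9 and holds 2 box H/ACA RNAs of the SNORA17 family, stood at 666, 822 and 837 CPM in FaDu cinobufotalin, resistant TPF and resistant TPF cinobufotalin. LRRC75A-AS1, host of SNORD49A, SNORD49B and SNORD65, stood at 835, 605 and 611 CPM. ZFAS1, on chromosome 20, stood at 348, 570 and 609 CPM. LRRC75A-AS1 was therefore the leading host in FaDu cinobufotalin and SNHG7 in both resistant libraries. SNHG6 stood at 441, 410 and 431 CPM, SNHG5, host of SNORD50A and SNORD50B, at 223, 254 and 273 CPM, and GAS5, host of 10 box C/D RNAs and 1 box H/ACA RNA in RefSeq, at 89.6, 233 and 241 CPM. SNHG15 was the last of the 7 genes with a mean of at least 100 CPM, at 98.6, 134 and 157 CPM.

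A middle group lay between about 20 and 110 CPM. SNHG16, host of the SNORD1 family, had 108, 91.1 and 94.4 CPM. DANCR, whose name comes from its effect on the differentiation of progenitor cells, had 93.1, 91.1 and 106 CPM, and SNHG17, host of 4 RNAs of the SNORA71 family, had 93.8, 92.2 and 103 CPM. These 3 and SNHG8, at 78.2, 82.0 and 90.8 CPM, differed little between libraries. SNHG1, host of the SNORD25 to SNORD31 group and of SNORD22, had 40.5, 63.6 and 68.9 CPM, and EPB41L4A-AS1, host of SNORA13, had 44.8, 60 and 67.1 CPM. Both were higher in the resistant libraries. SNHG25 had 44.6, 36.8 and 44.3 CPM, and SNHG9, host of SNORA78, had 35.9, 36.6 and 51.9 CPM, highest where resistant cells had both drugs. SNHG10 had 36.7, 27.0 and 29.9 CPM, SNHG12, host of SNORD99 and 3 box H/ACA RNAs, had 23.3, 35.0 and 32.5 CPM, and SNHG3, host of SNORA73A and SNORA73B, had 25.1, 23.8 and 25.7 CPM. SNHG26 lay between 19.5 and 22.7 CPM, and SNHG11 had 9.88, 16.8 and 15.3 CPM. Below a mean of 10 CPM, SNHG21 had 10.5, 7.35 and 6.80 CPM, SNHG19 had 4.52, 6.67 and 7.95 CPM, and SNHG4 had 6.83, 5.56 and 6.65 CPM. RefSeq places 11 small nucleolar RNA genes in GAS5 and 9 in SNHG1, against 2 in SNHG7 and 1 in SNHG6.

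**Figure D1:**
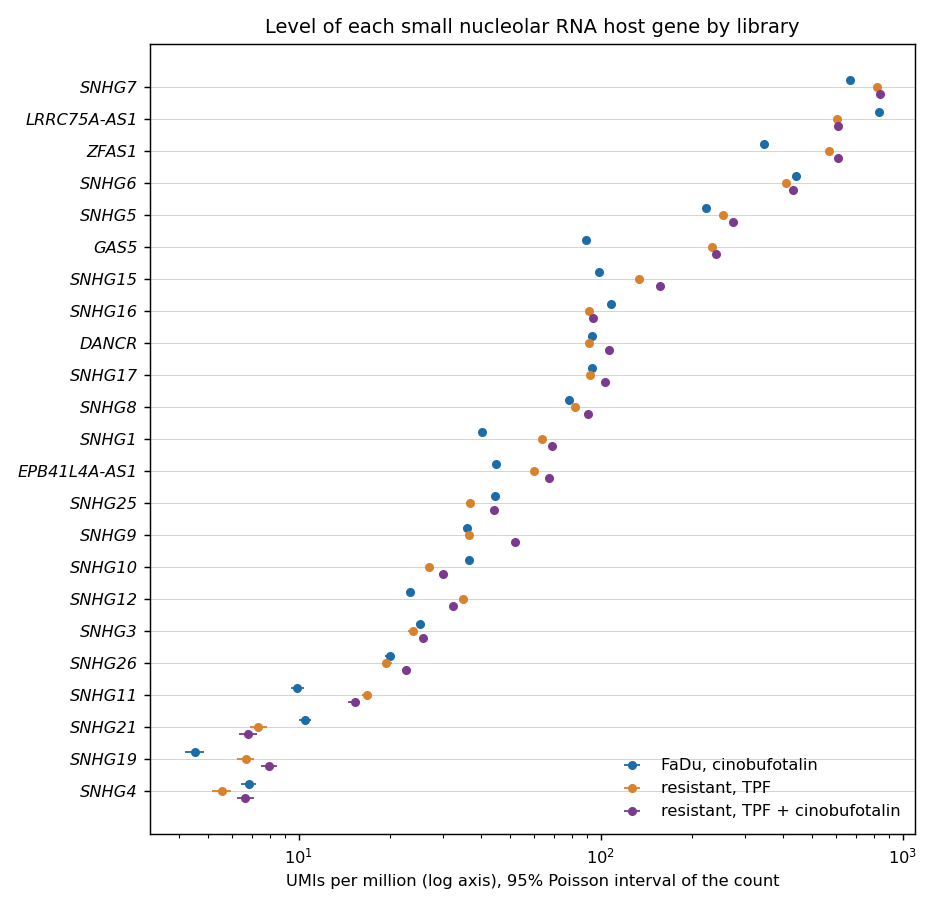
Level of the 23 host genes with a mean of at least 5 CPM, on a log axis of UMIs scaled to the same library total (CPM), in FaDu cinobufotalin (blue), resistant TPF (orange) and resistant TPF cinobufotalin (purple), with bars for the 95% Poisson interval of the count. GAS5 stands apart in blue at 89.6 CPM, with the resistant libraries at 233 and 241 CPM.

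The resistant libraries differ in 1 labelled factor, the addition of cinobufotalin to TPF, and the host genes hardly differed between them. None of the 20 at 10 CPM or more was at least 1.5-fold higher or lower, a fold that 0.246% of all 8143 genes reached, 0.0737% upward and 0.172% downward. The differences that were there pointed mostly one way: 18 of the 20 were above 0 on the log2 scale with cinobufotalin, 90.0%, against 36.1% of all genes, 48 of 80 ribosomal protein genes and 63.4% of 273 other long noncoding genes of any long noncoding type. The median log2 ratio was 0.11 for the host genes and -0.06 for all genes, and a shift of this size between 2 single libraries has no replicate check. The 18 also lay above the median gene, a count that no change of library scaling alters.

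SNHG9 had the largest ratio of the group in this pair, with 4949 UMIs in resistant TPF and 6992 in resistant TPF cinobufotalin, a log2 ratio of 0.50 (95% Clopper-Pearson interval of the counts 0.45 to 0.56), twelfth from the top of all genes. It crossed 1.5-fold with every cell weighted equally. SNHG25 followed at 0.27 (0.22 to 0.32), SNHG15 at 0.23 (0.20 to 0.26), DANCR at 0.22 (0.19 to 0.26) and SNHG26 at 0.22 (0.14 to 0.29). The hosts with the most UMIs were nearly level: SNHG7 at 0.03 (0.01 to 0.04), LRRC75A-AS1 at 0.01 (0.00 to 0.03) and GAS5 at 0.05 (0.03 to 0.07). SNHG12 at -0.11 (-0.17 to -0.05) and SNHG11 at -0.14 (-0.23 to -0.05) were the 2 that lay below 0. All these intervals cover counting error only.

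LRRC75A-AS1 and its neighbour on the other strand parted ways in this pair. LRRC75A, a protein-coding gene that shares 37102 bases of the locus, stood at 35.3, 25.8 and 65.5 CPM in FaDu cinobufotalin, resistant TPF and resistant TPF cinobufotalin, a log2 ratio of 1.34 between the resistant libraries. At least 2-fold upward was reached by 0.0123% of genes in this pair. The antisense host, at 605 and 611 CPM, was level. For every UMI of LRRC75A-AS1 there were 0.0422, 0.0426 and 0.107 of LRRC75A. How the counting treated strand is not given in the sources, so reads of the pair may not be fully separated.

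Against FaDu cinobufotalin the host genes split. In resistant TPF 5 of 20 were at least 1.5-fold higher, GAS5, SNHG11, ZFAS1, SNHG1 and SNHG12, where 35.0% of all genes were, and none was at least 1.5-fold lower, where 2.01% were. In resistant TPF cinobufotalin 5 of 20 were higher, with SNHG15 in place of SNHG12, where 32.6% of all genes were, and none lower, where 4.14% were. In either direction 37.0% and 36.8% of all genes were past 1.5-fold. At 2-fold GAS5 was the 1 host gene called in each comparison, where 13.2% and 13.3% of all genes were higher. The 2 comparisons share the FaDu cinobufotalin library, so each is only described. The shares of host genes called lay below those of all genes. Their median log2 ratio was 0.05 and 0.25, against 0.37 and 0.31 for all genes, and 7 and 9 of 20 lay above the median gene. Scaling by TMM (trimmed mean of M-values) moved the median of all genes to -0.20 and -0.21 and that of the host genes to -0.52 and -0.27. With it 1 host gene was at least 1.5-fold higher and 9 lower in resistant TPF, where 8.45% and 21.5% of all genes were, and 1 higher and 3 lower in resistant TPF cinobufotalin, where 9.96% and 25.0% were.

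GAS5 was the host gene at least 1.5-fold higher in both resistant libraries than in FaDu cinobufotalin under total and TMM scaling. Its 14852 UMIs in FaDu cinobufotalin compare with 31516 in resistant TPF and 32542 in resistant TPF cinobufotalin, log2 ratios of 1.38 (1.35 to 1.41) and 1.43 (1.40 to 1.46), or 2.60-fold and 2.70-fold. It ranked 316 and 276 from the top of 8143 genes, and over 15 other choices of cells and scaling the ratios lay between 0.65 and 1.65 and between 0.79 and 1.62. A ratio inside each library needs no scaling: for every UMI of SNHG6 there were 0.203, 0.569 and 0.560 of GAS5. ZFAS1 was next among the abundant hosts, at 0.71 and 0.81, and SNHG1 at 0.65 and 0.77. With TMM factors ZFAS1 and SNHG1 stayed above 0 but under 1.5-fold. LRRC75A-AS1 pointed the other way at -0.47 (-0.48 to -0.45) and -0.45 (-0.46 to -0.44), within 1.5-fold as scaled to all UMIs and past it with TMM factors.

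**Figure D2:**
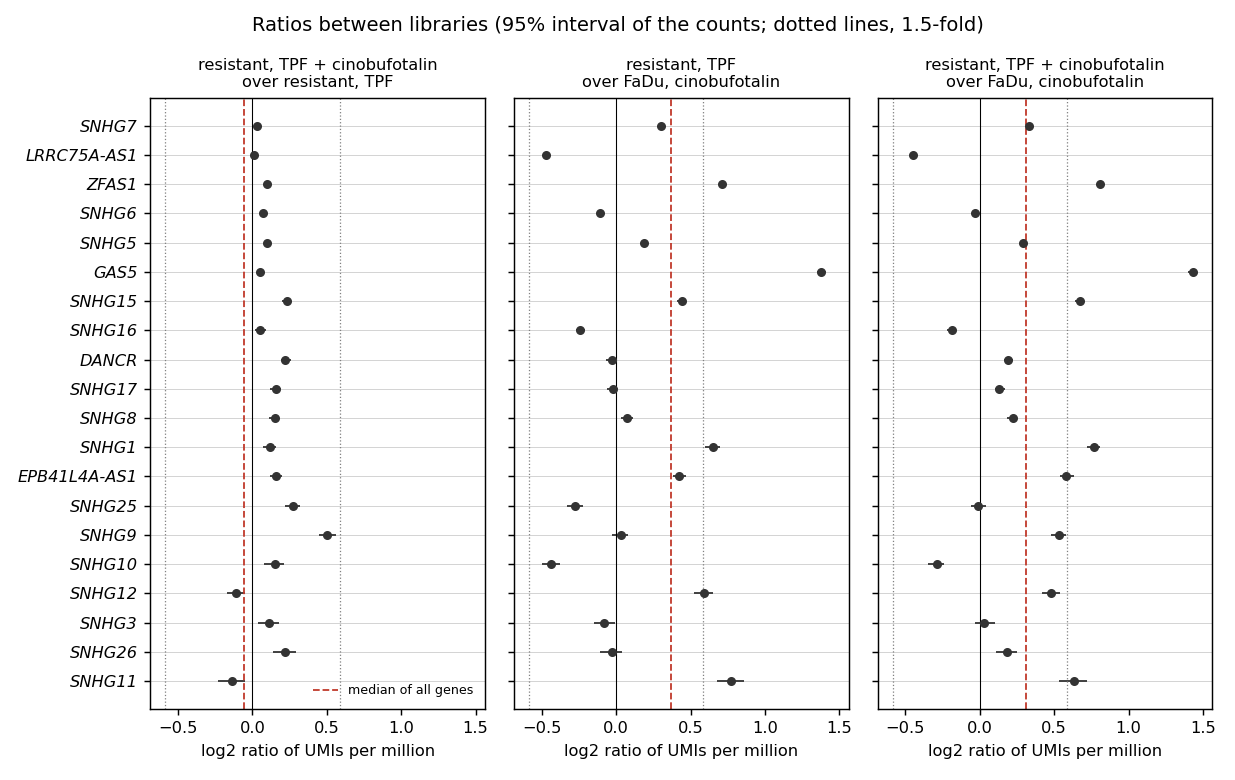
Log2 ratio of the CPM of 20 host genes in each pair of libraries, with the 95% interval of the counts, dotted lines at 1.5-fold and a dashed red line at the median of all 8143 genes. In the left panel all points lie within 1.5-fold, with SNHG9 at 0.50, and in the other panels GAS5 lies farthest right at 1.38 and 1.43.

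The ratios to FaDu cinobufotalin were also read in cells matched on the share of MALAT1, with 2% to 8% mitochondrial UMIs and at least 10000 UMIs each. GAS5 was at least 1.5-fold higher in both resistant libraries in all 3 matched sets. At a MALAT1 share of 0.05% to 0.2%, 3 host genes were higher in resistant TPF (GAS5, SNHG11 and ZFAS1), where 19.0% of all genes were, and 2 lower (SNHG10 and SNHG25), where 4.66% were. In resistant TPF cinobufotalin 7 were higher and 2 lower at that share, where 15.1% and 8.67% of all genes were, and the 9 were SNHG3, GAS5, EPB41L4A-AS1, SNHG15, SNHG7, SNHG9, LRRC75A-AS1, SNHG11 and ZFAS1. This set held 1063, 285 and 342 cells. At 0.3% to 1%, 3 (GAS5, SNHG11 and ZFAS1) and 4 (with SNHG15) were higher in the resistant libraries, where 20.4% and 21.9% of all genes were. At 1% to 2%, GAS5, SNHG1 and SNHG11 were higher in each, where 19.7% and 21.6% were.

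Genes of the machinery around these RNAs differed little between the resistant libraries. Of the proteins that build small nucleolar ribonucleoproteins, 16 of 17 listed genes were measured at 10 CPM, with a median log2 ratio of -0.09 between the resistant libraries and 0 past 1.5-fold. SNU13, which binds the C and D boxes, stood at 1634, 1483 and 1652 CPM, and NOP10, a core protein of the box H/ACA class, at 733, 657 and 811 CPM. RUVBL2, an assembly ATPase, stood at 62.8, 46.2 and 38.6 CPM. Of the nonsense-mediated decay genes 14 of 16 were measured, with a median of 0.03 between the resistant libraries and 0.38 and 0.40 over FaDu cinobufotalin, close to the 0.37 and 0.31 of all genes. RBM8A and MAGOH, which mark exon junctions, stood at 447, 467 and 493 CPM and at 330, 294 and 292 CPM, and EIF4A3, the helicase of the junction complex, at 128, 160 and 125 CPM.

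Ribosomal protein genes and other genes known for TOP starts had lower medians than the host genes. The 80 cytosolic ribosomal protein genes had a median log2 ratio of 0.06 between the resistant libraries and -0.41 and -0.36 over FaDu cinobufotalin. Over FaDu cinobufotalin 14 and 17 of them were at least 1.5-fold lower, where 2.01% and 4.14% of all genes were. In each comparison 1 was at least 1.5-fold higher, where 35.0% and 32.6% of all genes were. RPS12 stood at 10670, 7704 and 8673 CPM and RPLP1 at 8536, 5778 and 7370 CPM. RPL4 and RPL3 stood at 528, 437 and 322 CPM and at 1003, 698 and 517 CPM, lower with cinobufotalin by log2 -0.44 and -0.43. The other 16 measured translation genes with TOP starts had medians of -0.15, -0.13 and -0.27 in the 3 pairs. Between the resistant libraries 14 of the 16 were below 0, where 5201 of all 8143 genes were. EEF1A1, the elongation factor, stood at 2463, 1846 and 1896 CPM, EIF3F at 89.4, 69.2 and 53.6 CPM and EIF3H at 254, 268 and 210 CPM. Within the host genes, the 12 with an annotated TOP start had medians of 0.09, 0.13 and 0.25 and the 8 without had 0.19, 0.00 and 0.26.

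Protein-coding genes with a small nucleolar RNA gene inside their span on the same strand, 139 of 227 outside ribosomal proteins at 10 CPM, had medians of -0.01, 0.51 and 0.49. TPT1, a TOP messenger, stood at 1830, 1620 and 1520 CPM, RACK1, a protein of the small ribosomal subunit, at 1022, 695 and 581 CPM, NOP53, a ribosome assembly factor, at 42.7, 35.8 and 25.1 CPM and MAGED2 at 14.9, 14.9 and 11.4 CPM. Ribosome biogenesis genes, 17 of 24 measured, had medians of -0.08, 0.37 and 0.26, with NCL (nucleolin) at 330, 563 and 514 CPM, POLR1D, a subunit of RNA polymerases I and III, at 351, 301 and 298 CPM, RRP9 at 13.7, 20.4 and 14.5 CPM and BYSL at 18.7, 18.4 and 15.1 CPM. Genes of mTORC1 and LARP1, which control the translation of TOP messengers, had medians of -0.05, 0.32 and 0.27 over 11 of 12. Among these RHEB stood at 590, 605 and 576 CPM, EIF4EBP1 at 183, 153 and 152 CPM, RPS6KB2 at 45.2, 48.8 and 37.5 CPM and RPTOR at 14.5, 21.7 and 25.2 CPM. The nuclear RNA NEAT1 stood at 824, 1507 and 1733 CPM.

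Among single cells, each thinned to 5000 UMIs so that depth did not set the counts, a cell held UMIs of a median of 7, 8 and 8 host genes and 16, 16 and 18 host gene UMIs in the library order above. The thinned sets held 5979, 4657 and 6954 cells, after 144, 205 and 571 shallower cells were left out. A UMI of SNHG7 was found in 90.3%, 90.8% and 90.4% of cells (98.2%, 98.2% and 95.3% before thinning) and of LRRC75A-AS1 in 96.0%, 89.6% and 89.5%. GAS5 was found in 32.4% (Clopper-Pearson 31.2 to 33.6), 52.8% (51.4 to 54.3) and 57.5% (56.3 to 58.7) of cells, and before thinning in 74.6%, 85.7% and 81.4%. SNHG12 was found in 9.85%, 13.1% and 13.1% and SNHG11 in 5.10%, 7.43% and 6.40%. No cell type that lacks these genes was present to measure the share that free RNA gives.

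Variation between cells was higher for the median abundant host gene than for the median gene of that level. The squared coefficient of variation left after subtracting counting noise had a median of 0.324, 0.444 and 0.458 over the 7 host genes at 100 CPM or more, against 0.178, 0.202 and 0.229 over all 1509 genes at that level and 0.148, 0.158 and 0.228 over 79 ribosomal protein genes. GAS5 had 1.22, 1.30 and 1.02, ZFAS1 had 0.619, 0.783 and 0.705, and LRRC75A-AS1 had 0.180, 0.233 and 0.248. Of the 20 host genes at 10 CPM or more, cells differed most in SNHG10, at 17.6, 6.12 and 11.4: the 1% of cells with most of it held 24.3%, 24.0% and 21.4% of its UMIs, and 1 cell held 189 before thinning. For SNHG12, the host gene nearest in mean level, the 1% held 21.5%, 19.9% and 20.9%, and for SNHG3 16.2%, 17.6% and 15.3%.

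Several host genes were high in the same cells. Over the thinned cells, as log(1 + UMIs), Pearson's r between GAS5 and ZFAS1 was 0.21, 0.38 and 0.38, between ZFAS1 and SNHG15 0.17, 0.36 and 0.32, and between GAS5 and SNHG15 0.13, 0.30 and 0.26, while the median r of GAS5 with all 8143 genes was 0.003, 0.006 and -0.003. These are descriptions over 5979, 4657 and 6954 cells that share a library and a depth. ZFAS1 was the gene with the highest r to GAS5 in each library, and GAS5 the gene with the highest r to ZFAS1. SNHG5 had as its nearest genes RPS12, RPS20 and RPL12 in FaDu cinobufotalin and RPL37, RPL28 and RPS20 in resistant TPF cinobufotalin, while in resistant TPF ZFAS1 and GAS5 came first. For LRRC75A-AS1 the nearest gene was RPL26, ZFAS1 and EIF5A in FaDu cinobufotalin, resistant TPF and resistant TPF cinobufotalin.

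Beside other host genes, the 10 genes nearest to GAS5, ZFAS1, SNHG15, SNHG1 and SNHG12 included stress genes, with DDIT3 among them for all 5 in each library and GADD45A, GADD45B or JUN in many. TXNIP, RPL22L1 and RPS18 came before DDIT3 for GAS5 in resistant TPF cinobufotalin. DDIT3 encodes CHOP, a transcription factor induced in the integrated stress response, and GADD45A and GADD45B encode stress and growth arrest proteins. DDIT3 itself stood at 58.7, 164 and 139 CPM. It was used to order the cells, a choice made after these correlations were seen, so the ratios of those 5 host genes by DDIT3, and every count or sum that holds them, are a description and not independent of it. Cells with 4 or more DDIT3 UMIs among 5000 made up 0.920%, 5.20% and 4.33% of the libraries, 55, 242 and 301 cells, and cells with none 79.9%, 61.7% and 63.2%.

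In cells with 4 or more DDIT3 UMIs the host genes together made up 60.3, 61.6 and 62.9 of every 10000 UMIs, against 32.7, 32.0 and 36.1 in cells with none. Much of that lay in those 5 genes: the other 15 host genes at 10 CPM or more made up 34.7, 34.9 and 34.2 of every 10000 UMIs, against 27.1, 24.4 and 26.8. Of the 15, at least 1.5-fold higher were 4, 5 and 5, where 26.3%, 19.0% and 22.2% of all 8142 genes other than DDIT3 were, so in FaDu cinobufotalin their share was near that of all genes. At least 1.5-fold lower were 5, 1 and 2 of the 15, where 15.8%, 7.58% and 6.76% were. The median log2 ratio of the 15 was 0.27, 0.21 and -0.13, against 0.13, 0.13 and 0.20 for the other genes, 0.34, 0.14 and 0.15 for 260 other long noncoding genes and -0.30, -0.23 and -0.31 for the 80 ribosomal protein genes. With the 5 included, 9, 10 and 10 of 20 were higher. With 2 to 3 DDIT3 UMIs 2, 1 and 1 of the 15 were at least 1.5-fold higher than in cells with none, where 9.05%, 5.69% and 8.08% of the other genes were, and 2, 0 and 1 were lower, where 3.67%, 1.46% and 1.44% were.

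SNHG12 had the largest ratio of the host genes. In cells with 0, 1, 2 to 3 and 4 or more DDIT3 UMIs it stood at 19.1, 25.7, 49.5 and 156 CPM in FaDu cinobufotalin, at 22.1, 32.5, 49.9 and 145 CPM in resistant TPF, and at 21.9, 30.9, 52.0 and 171 CPM in resistant TPF cinobufotalin. The log2 ratios of the outer classes, 3.03, 2.72 and 2.96, placed it 7, 3 and 3 from the top when set among the 8122 genes outside the group. ZFAS1 went from 318 to 390, 586 and 1513 CPM in FaDu cinobufotalin, from 409 to 580, 748 and 1360 CPM in resistant TPF and from 514 to 629, 855 and 1509 CPM in resistant TPF cinobufotalin, and in the class with 4 or more it stood above SNHG7 (789, 1242 and 1142 CPM) in the 3 libraries. SNHG15 went from 89.4 to 335 CPM, from 89.6 to 415 CPM and from 109 to 416 CPM between the outer classes, and SNHG1 from 33.9 to 185, from 45.3 to 174 and from 57.3 to 183 CPM.

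GAS5 showed both differences, between cells and between libraries. It went from 78.8 to 113, 188 and 360 CPM over the DDIT3 classes in FaDu cinobufotalin, from 164 to 254, 363 and 564 CPM in resistant TPF, and from 201 to 281, 373 and 557 CPM in resistant TPF cinobufotalin. Within each DDIT3 class the intervals of the resistant libraries lay above that of FaDu cinobufotalin. In cells with no DDIT3 UMI the log2 ratio of GAS5 to FaDu cinobufotalin was 1.05 in resistant TPF and 1.35 in resistant TPF cinobufotalin. For ZFAS1, SNHG1, SNHG12 and SNHG15 the ratios to FaDu cinobufotalin were smaller in these cells than over all cells. ZFAS1 was at 0.37 and 0.69, SNHG1 at 0.42 and 0.75, SNHG12 at 0.21 and 0.20 and SNHG15 at 0.00 and 0.29. The second SNHG1 ratio lay near its 0.77 over all cells before thinning. Thinned to 5000 UMIs, all cells held a mean of 0.203 SNHG1 UMIs in FaDu cinobufotalin and 0.365 in resistant TPF cinobufotalin. In cells with no DDIT3 UMI 1 host gene, GAS5, was at least 1.5-fold higher in resistant TPF than in FaDu cinobufotalin, where 30.1% of all genes were. In resistant TPF cinobufotalin 3 were, where 27.8% of all genes were.

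The other host genes were mixed. SNHG11, SNHG8 and EPB41L4A-AS1 were at least 1.5-fold higher with DDIT3 in all 3 libraries, as was SNHG17, with log2 ratios between 0.66 and 2.40 over the 4 genes. SNHG7 was past 1.5-fold in the resistant libraries at 0.80 and 0.68, against 0.29 in FaDu cinobufotalin. DANCR was lower in every library, from 94.8 to 50.9 CPM, from 99.0 to 57.9 CPM and from 109 to 67.8 CPM. SNHG6, at 0.05, 0.08 and -0.17, SNHG5 and LRRC75A-AS1 were within 1.5-fold. SNHG3, SNHG16, SNHG25 and SNHG26 had ratios below 0 in all 3 libraries, some of them slight. In resistant TPF SNHG3 was at -0.01, SNHG16 at -0.12 and SNHG25 at -0.17. In FaDu cinobufotalin SNHG3 and SNHG26 had only 4 UMIs each in the class with 4 or more. Among the genes at least 1.5-fold higher in all 3 libraries, SNHG12, GAS5, ZFAS1, SNHG1, SNHG11 and SNHG8 have an annotated TOP start. SNHG15, EPB41L4A-AS1 and SNHG17, also higher in all 3, have none. Of the rest, LRRC75A-AS1, SNHG6, SNHG5, SNHG16, SNHG25 and SNHG3 have one, and SNHG7, DANCR, SNHG9, SNHG10 and SNHG26 have none. The part of a TOP start in these ratios was not tested.

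Cells with 4 or more DDIT3 UMIs differed from cells with none in other ways as well. Their median mitochondrial share was 3.00%, 3.09% and 3.13% against 3.89%, 4.23% and 3.76%, their ribosomal protein share 14.8%, 11.6% and 12.4% against 18.9%, 14.2% and 14.9%, and their MALAT1 share 0.260%, 1.05% and 1.18% against 0.0825%, 0.767% and 0.669%. Their depth before thinning was alike, with medians of 23533, 28710.5 and 18094 UMIs against 24782.5, 28739.5 and 18741. GADD45A stood at 1044, 988 and 804 CPM against 157, 170 and 161 CPM. The part of these shares in the host gene ratios was not tested. Among cells called G2M alone, 10, 11 and 11 of 20 host genes, the 5 included, were at least 1.5-fold higher, where 28.7%, 24.8% and 27.6% of all genes were. With GADD45A ordering the cells in place of DDIT3, 8, 10 and 8 of 20 were, where 14.4%, 14.0% and 16.0% of all genes were. GADD45A was itself among the 10 genes nearest to SNHG15, SNHG1 and SNHG12 in each library. The counts ordered by it hold those genes and are likewise not independent of the correlations.

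**Figure D3:**
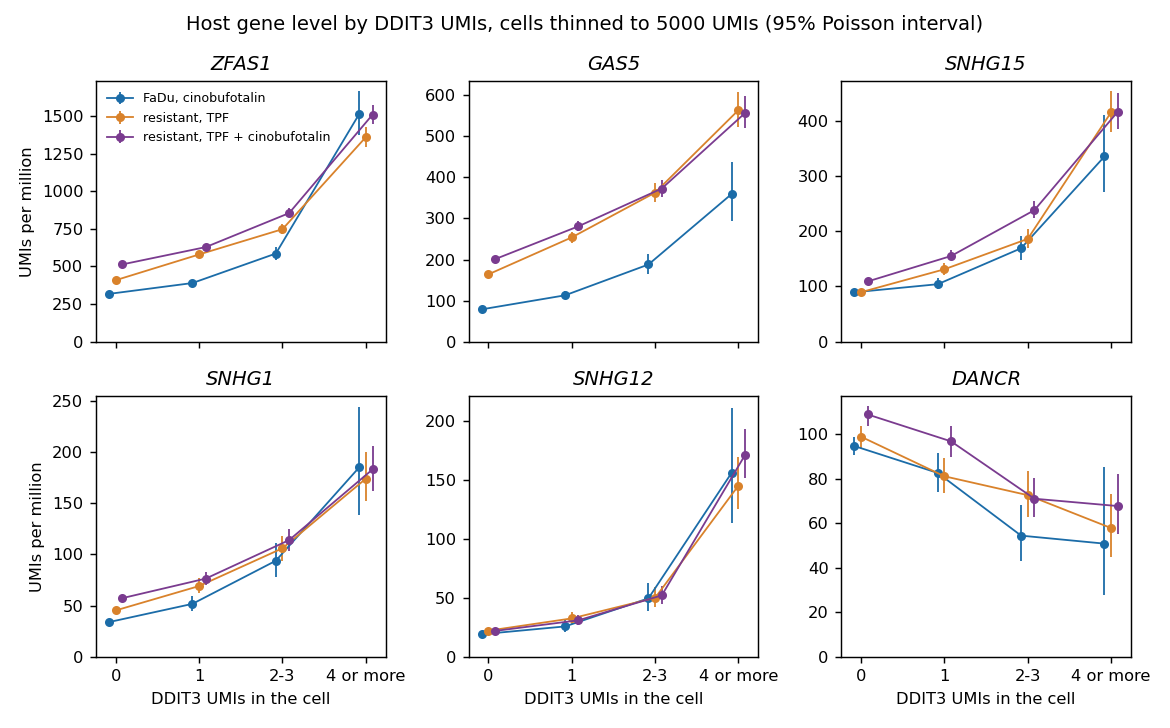
Level in CPM (vertical axis from 0, 95% Poisson interval of the count) of 6 host genes in cells with 0, 1, 2 to 3 and 4 or more DDIT3 UMIs, each cell thinned to 5000 UMIs, by library. ZFAS1, GAS5, SNHG15, SNHG1 and SNHG12 are higher in each further class and DANCR lower, and for GAS5 the blue line of FaDu cinobufotalin runs below the resistant libraries at 78.8 to 360 CPM.

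Cells were also grouped by cell cycle phase, called from S and G2/M gene lists. G1, S and G2M cells numbered 661, 914 and 4404 in FaDu cinobufotalin, 546, 1458 and 2653 in resistant TPF and 609, 2133 and 4212 in resistant TPF cinobufotalin. These calls are relative scores made over the 3 libraries pooled, not measured phases. Over FaDu cinobufotalin the S list had median log2 ratios of 1.01 and 0.86 and the G2/M list 0.68 and 0.67. The part of these differences in the calls was not tested. Between S and G1 cells 0, 3 and 4 of 20 host genes were at least 1.5-fold higher in the 3 libraries, where 7.34%, 13.5% and 13.5% of all genes were, and 0, 2 and 1 were lower, where 2.87%, 9.52% and 9.33% were. SNHG17 was higher in S cells at log2 0.52, 0.72 and 0.84 and SNHG15 at 0.44, 0.82 and 0.74. SNHG3 was lower in G2M than in G1 cells at -0.64, -1.15 and -1.01. GAS5 was higher in S than in G1 cells in the resistant libraries at 0.70 and 0.52 and lower in FaDu cinobufotalin at -0.31, and this difference between libraries was not tested.

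Cells of each library were also put in 5 equal bins by their share of ribosomal protein, MALAT1 or mitochondrial UMIs, shares that depend on the same totals as the levels. Between the bins with the highest and the lowest ribosomal protein share, SNHG6 was higher at log2 0.54, 0.71 and 1.10 and SNHG5 at 0.52, 0.52 and 0.96, while 0, 2 and 3 of 20 host genes were at least 1.5-fold higher, where 2.71%, 4.88% and 5.43% of all genes were. In each library 3 were lower, where 48.6%, 39.9% and 54.6% of all genes were. SNHG12 at -1.06, -1.17 and -1.0 and SNHG1 at -0.85, -0.74 and -0.87 were lower there. With the MALAT1 share SNHG12 at 0.69, 0.78 and 0.99, SNHG1 at 0.61, 0.54 and 0.76 and SNHG3 at 0.83, 0.85 and 0.93 were higher. There 4, 3 and 3 of 20 were at least 1.5-fold higher, where 38.1%, 27.9% and 46.9% of all genes were, and 0, 2 and 3 lower, where 0.995%, 6.63% and 6.56% were. With the mitochondrial share GAS5 was lower in the resistant libraries at -1.18 and -1.06 and nearly level in FaDu cinobufotalin at -0.12, and SNHG15 followed at -1.12 and -0.76 in the resistant libraries and 0.05 in FaDu cinobufotalin. Of 20 host genes 0, 5 and 4 were at least 1.5-fold lower in the library order above, where 1.24%, 2.39% and 3.35% of all genes were, and 2, 2 and 3 higher, SNHG25 and SNHG3 in each, where 31.7%, 12.3% and 24.5% were.

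**Figure D4:**
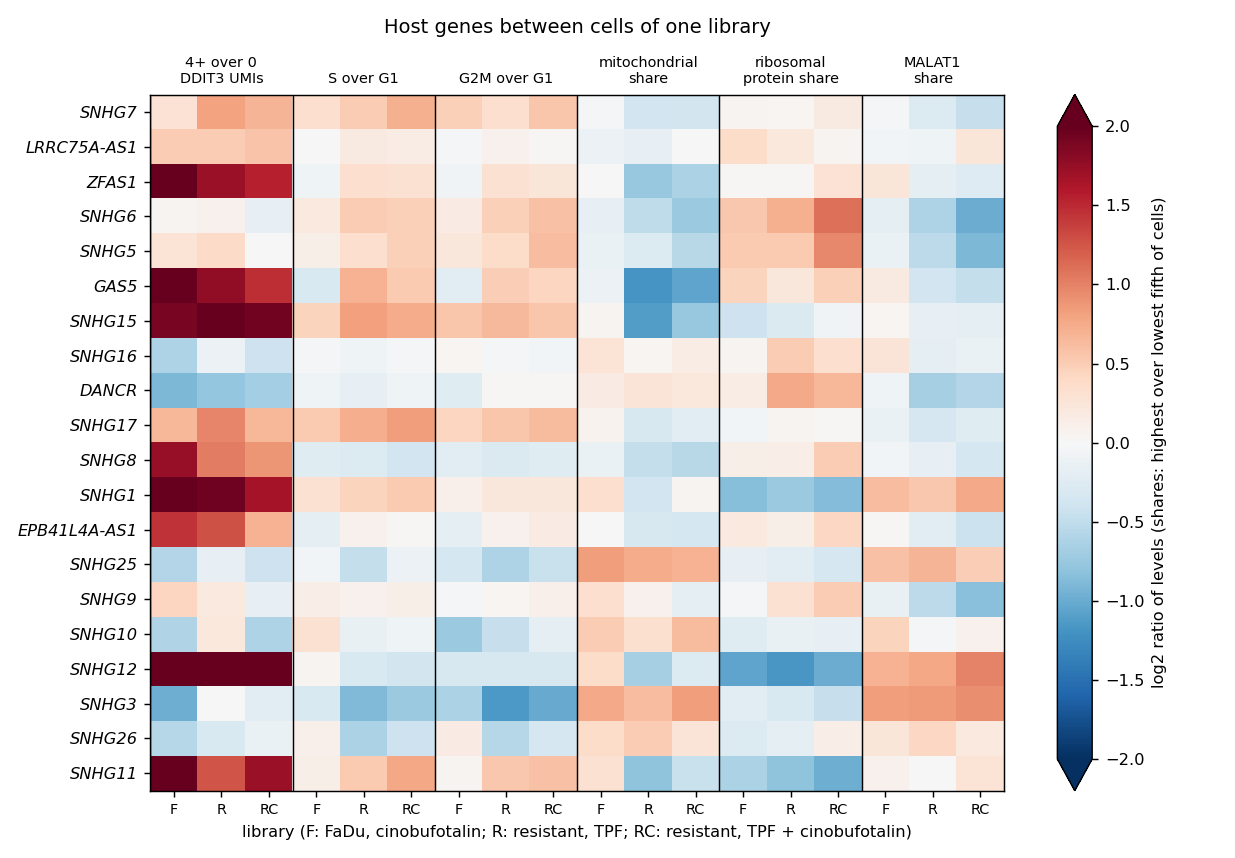
Log2 ratio of 20 host genes between cells of the same library (F, FaDu cinobufotalin; R, resistant TPF; RC, resistant TPF cinobufotalin) for DDIT3 UMIs (4 or more over 0), phases, and the highest over the lowest of 5 bins by mitochondrial, ribosomal protein and MALAT1 share; red is higher, blue lower, with colours saturating at 2. SNHG12 is dark red in the DDIT3 columns at 3.03, 2.72 and 2.96.

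The loci of the host genes differ in size and neighbours. RefSeq places at least 1 small nucleolar RNA gene inside 21 of the 23 genes with a mean of at least 5 CPM, 58 in all, and none in SNHG10 and SNHG21. That count took only genes typed as small nucleolar RNA, and GENCODE 29 places SCARNA13 in SNHG10 and SCARNA15 in SNHG21. GAS5 spans 4983 bases of the minus strand of chromosome 1 (173863900 to 173868882, GRCh38), SNHG1 3927 bases of chromosome 11 and SNHG12 4595 bases of chromosome 1. SNHG9, on chromosome 16 (1964959 to 1965509), spans 551 bases and holds SNORA78 in its exonic sequence, since its longest transcript has 1 exon, and LRRC75A-AS1 spans 39857 bases of chromosome 17 (16438822 to 16478678). Where an overlapping gene was abundant, counts at the locus could include its reads. GLRX5, a mitochondrial iron-sulfur protein gene opposite SNHG10, stood at 806, 779 and 812 CPM, ZNFX1 opposite ZFAS1 at 68.2, 83.5 and 80.1 CPM, RCC1 on the same strand as SNHG3 at 30.9, 28.5 and 23.4 CPM, SIL1 opposite SNHG4 at 20.7, 24.5 and 22.9 CPM and TRNAU1AP opposite SNHG12 at 15.7, 18.2 and 14.8 CPM. None of these 5 neighbours had a log2 ratio past 0.31 in size in the resistant pair, and ZBTB37, opposite GAS5, stood at a mean of 2.43 CPM.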

How the data were processed

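The deposited tables are raw UMI counts by gene and cell barcode from Cell Ranger 7.0 with hg38, per the submitters' processing notes. Their gene annotation and their treatment of intronic reads and strand are not given in the sources. All 58735 gene IDs were found in GENCODE 29, which gave spans and transcripts. UMIs of kept cells, 165847771, 135176387 and 134802289 in the library order of the report, were summed and scaled to CPM (Python 3.11.15, numpy 2.4.6, scipy 1.17.1, pandas 2.3.3). Intervals are exact at 95% and cover counting error only. Genes at a mean of at least 10 CPM were compared at 1.5-fold, without tests, since each group is 1 library. Cells were thinned to 5000 UMIs with a fixed seed, and phases called with scanpy 1.11.5. No doublet caller was run and free RNA was not corrected for. TMM factors came from edgeR 4.0.16 in R 4.3.3. The calculations were tested on simulated data. Host genes at a mean of at least 5 CPM were named, with, from each companion list, the 2 highest and the 2 with the largest ratio between the resistant libraries; 1 gene under this rule is not reported here. The genes, lists and comparisons were chosen with earlier results of these data known.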

Additional observations from a re-analysis of the deposited data

How the results depend on the processing

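No paired analysis was possible because each group is 1 library. Depth limits the genes under 5 CPM, of which 2 had no UMI, and cells with 4 or more DDIT3 UMIs, 55 in FaDu cinobufotalin. Between the resistant libraries the count of host genes at least 1.5-fold apart, 0 of 20, became 1, SNHG9, with equal weight per cell and in cells with 0 DDIT3 UMIs, a setting chosen after seeing the data. Over FaDu cinobufotalin the 5 in resistant TPF, all higher, became 10 with TMM factors, 1 higher and 9 lower. The 5 became 3 with totals outside mitochondrial and ribosomal protein genes, 3 with cells thinned to 5000 UMIs and 3 at a mean of at least 50 CPM. They became 3 at a MALAT1 share of 0.3% to 1%, 3 at 1% to 2%, 1 at 2-fold (GAS5) and 1 in thinned cells with 0 DDIT3 UMIs. The 5 in resistant TPF cinobufotalin, all higher, became 9 at a MALAT1 share of 0.05% to 0.2%, 2 of them lower, and 3 at 1% to 2%. They became 8 at a mean of at least 1 CPM, 1 at 2-fold (GAS5) and 3 in thinned cells with 0 DDIT3 UMIs. Shares of all genes are given above for TMM factors, the MALAT1 shares, 2-fold upward and 0 DDIT3 UMIs. For the other settings, and for the 3 bins named next, they are not given here, so those counts are not read against all genes. TMM, fewer genes and fewer cells change these counts by construction; otherwise the cause was not tested. With 3 bins instead of 5, the host genes at least 1.5-fold apart in resistant TPF numbered 3 in place of 5 by ribosomal protein share and 1 in place of 5 by MALAT1 share, and 1 in place of 4 by MALAT1 share in FaDu cinobufotalin. The other 54 such values stayed within 1.5 times the main one, among them the counts by DDIT3 under 3 added settings and the spread between cells at 10000 UMIs. These counts add higher and lower genes, so a change of direction does not show in them. In resistant TPF cinobufotalin the 5 higher became 1 higher and 3 lower with TMM factors. In resistant TPF the 5 higher became 3 higher and 2 lower at a MALAT1 share of 0.05% to 0.2%. The counts by DDIT3, and by GADD45A in its place, hold the host genes whose correlations led to DDIT3, so their stability is not independent support. No ratio past 1.5-fold of the genes followed changed sign.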

Other observations

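A few cells held very many SNHG10 UMIs. Cells with at least 5 among 5000, a limit chosen after their values were seen, numbered 18, 9 and 7 in FaDu cinobufotalin, resistant TPF and resistant TPF cinobufotalin, with a mean of 9.17, 7.11 and 12 UMIs. SNHG10 lies on chromosome 14. Of 1509 genes at 100 CPM or more, 5.04% lie on that chromosome, yet 14, 7 and 9 of the 20 genes with the highest ratio in those cells over the rest did, GON7 and TMEM251 among them in all 3 libraries. The median log2 ratio of the 76 chromosome 14 genes was 0.34, 0.66 and 0.45, against 0.04, -0.02 and -0.01 for the other genes. GLRX5, which overlaps SNHG10 on the other strand, had a mean of 11.2, 9.67 and 8.43 UMIs in those cells and 3.99, 3.82 and 3.86 in the rest. Nothing was tested on these few cells.

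TXNIP, which encodes a thioredoxin-binding protein and was among the 10 genes nearest to GAS5 over cells in each library, stood at 18.3, 167 and 171 CPM in the same library order.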
